A study of Mus musculus with 8 samples.

Results

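Amino acid transporters of the cell surface were followed in *Zeb1*-/- LSK cells, marrow cells that carry C-KIT and SCA-1 but no lineage antigens and that include the blood stem and progenitor cells. The members are the 10 genes *Slc3a2*, *Slc7a5*, *Slc7a6*, *Slc7a11*, *Slc7a1*, *Slc1a4*, *Slc1a5*, *Slc38a1*, *Slc38a2* and *Slc43a1*, taken by name from the 54532 genes of the deposited count table. RNA-Seq libraries came from 4 samples sorted as EpCAM+ and 4 sorted as EpCAM-, and the study compared these fractions of the same mutant compartment. The mice were C57BL/6, 8 to 12 weeks old, with the genotype *Zeb1* fl/fl;*Mx1-Cre*+/-, and had received pIpC, a double-stranded RNA mimic that switches on Cre from the interferon-responsive *Mx1* promoter. Marrow was taken 14 days after the last dose. Every library therefore comes from mice of this genotype given pIpC, and the comparison holds no control mice. *Mx1-Cre* acts in any cell that responds to interferon and is not limited to blood cells.

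Amino acids cross the plasma membrane through several carrier families. The SLC7 light chains LAT1 (*Slc7a5*), y+LAT2 (*Slc7a6*) and xCT (*Slc7a11*) reach the membrane only when they are bound to the CD98 heavy chain (*Slc3a2*), while LAT3 (*Slc43a1*) and the cationic amino acid carrier CAT1 (*Slc7a1*) need no heavy chain. The exchangers ASCT1 (*Slc1a4*) and ASCT2 (*Slc1a5*) carry small neutral amino acids including, for ASCT2, glutamine, and the sodium-coupled carriers SNAT1 (*Slc38a1*) and SNAT2 (*Slc38a2*) concentrate glutamine and other neutral amino acids in the cell. Leucine brought in by LAT1 and LAT3 is a signal to the growth kinase mTORC1, and a shortage of amino acids raises the translation of ATF4, a factor that switches on several of these transporter genes through C/EBP-ATF elements.

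Of the 10 transporters, 3 were lower in EpCAM+ than in EpCAM- cells and none was higher. These calls come from a fit that did not use the replicate numbers. With the replicate number as a block, the same 3 were lower and *Slc1a5* was called higher. The leucine carrier *Slc7a5* fell to 0.536 of its EpCAM- level, the leucine carrier *Slc43a1* to 0.610 and the arginine and lysine carrier *Slc7a1* to 0.756. The other 6 tested members did not pass the threshold, among them the heavy chain *Slc3a2* and the glutamine carriers *Slc1a5*, *Slc38a1* and *Slc38a2*. *Slc7a11* did not pass the filter on low counts and has no call.

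A call is an adjusted p under 0.05 in edgeR's quasi-likelihood test, adjusted by the Benjamini-Hochberg method over 13560 genes. In the same test 20.8% of all genes were lower in EpCAM+ cells and 21.8% were higher, 42.6% in all, so that 3 lower calls and 0 higher calls among 9 members are to be read against a background in which such calls were common. The median log2 fold change (EpCAM+ minus EpCAM-) was -0.09 over the 9 tested members and 0.02 over all tested genes, and the median of its absolute size was 0.20 against 0.33. Levels are given as CPM, read counts scaled to the TMM-corrected library size. In CPM, 2 of the 9 members, *Slc7a5* and *Slc43a1*, had fractions without overlap, against 40.1% of all tested genes. Summed over the 10 members, the level was 784 to 869 CPM in EpCAM+ and 804 to 975 CPM in EpCAM- libraries, ranges that overlap.

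The promoter sequences of 4 members are shown first, because they hold the letters that the regulators above are known to read. They are RefSeq windows of the mouse build GRCm38.p6, from 250 bases before to 50 bases after an annotated start site, and are written 5′ to 3′ on the strand of the gene. Capitals mark matches, on either strand, to 4 patterns, namely CACGTG (the E-box read by the MYC family), CACCTG (an E2-box, the kind of site ZEB1 binds), TGATGNAA (the C/EBP-ATF element) and TGACNNNGC (the antioxidant response element read by NRF2). *Slc43a1* and *Slc7a1* are given as transporters that were lower in EpCAM+ cells, and *Slc7a11* and *Slc1a4* as the members that hold the C/EBP-ATF element. The *Slc43a1* window lies at chr2:84840073-84840372 on the plus strand, the *Slc7a1* window at chr5:148399855-148400154, the *Slc7a11* window at chr3:50443564-50443863 and the *Slc1a4* window at chr11:20332664-20332963, the last 3 on the minus strand.
Slc43a1: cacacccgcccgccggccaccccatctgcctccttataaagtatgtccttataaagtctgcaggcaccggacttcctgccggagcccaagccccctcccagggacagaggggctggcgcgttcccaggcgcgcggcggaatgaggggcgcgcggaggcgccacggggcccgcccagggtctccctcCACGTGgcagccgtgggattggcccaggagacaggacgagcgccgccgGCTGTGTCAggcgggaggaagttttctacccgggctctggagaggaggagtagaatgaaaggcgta
Slc7a1: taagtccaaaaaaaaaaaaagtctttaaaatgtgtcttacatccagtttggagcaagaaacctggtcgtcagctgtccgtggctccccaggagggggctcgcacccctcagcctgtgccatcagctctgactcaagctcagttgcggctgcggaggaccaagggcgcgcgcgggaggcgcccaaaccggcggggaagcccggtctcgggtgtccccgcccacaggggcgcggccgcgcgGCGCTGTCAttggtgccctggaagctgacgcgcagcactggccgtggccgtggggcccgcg
Slc7a11: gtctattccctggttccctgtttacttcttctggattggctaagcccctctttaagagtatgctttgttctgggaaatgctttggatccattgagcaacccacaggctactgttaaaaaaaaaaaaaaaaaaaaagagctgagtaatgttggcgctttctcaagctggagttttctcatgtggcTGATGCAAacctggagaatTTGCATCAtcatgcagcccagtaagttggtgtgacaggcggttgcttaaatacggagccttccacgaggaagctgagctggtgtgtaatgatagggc
Slc1a4: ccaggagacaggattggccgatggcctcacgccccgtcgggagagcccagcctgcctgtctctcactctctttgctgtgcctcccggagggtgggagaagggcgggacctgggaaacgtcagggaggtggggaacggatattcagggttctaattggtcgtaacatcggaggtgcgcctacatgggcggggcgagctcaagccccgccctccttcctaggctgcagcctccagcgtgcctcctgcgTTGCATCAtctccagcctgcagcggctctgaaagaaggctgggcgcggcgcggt

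The *Slc7a11* window holds the C/EBP-ATF element on both strands, at 66 and at 47 bases before the start site, and the *Slc1a4* window holds it 4 bases before the start. No other member window had these letters, which occur in 3.97% of the 32851 promoter windows of the same length. The window of *Slc43a1* was the single one of 9 member windows with CACGTG, 64 bases before the start site, against 7.15% of all windows. The *Slc43a1* start site in RefSeq is 1473 bases inside the start of the gene in the count table, so this window belongs to one of its start sites. Likewise the *Slc3a2* start site is 9472 bases inside the gene start, and that of another *Slc7a1* window, not printed, 7089 bases. Start sites without a window were not searched. CACCTG was present in 2 of 9 member windows, those of *Slc7a6* and *Slc38a2*, against 20.2% of all windows. TGACNNNGC was in 5 of the 9 windows, against 12.4% of all, and 2 of these 5 are overlapping *Slc7a6* windows that share 1 match. The patterns do not overlap each other in the windows printed. The 9 windows belong to 7 members, and *Slc7a5*, *Slc1a5* and *Slc38a1* have no entry in the table. A match is a string of letters, and no binding was measured here.

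The heavy chain *Slc3a2* (ENSMUSG00000010095, chr19:8706882-8723369, minus strand, GRCm38) was among the most abundant member transcripts. Its level was 270, 194, 210 and 225 CPM in EpCAM+ replicates 1 to 4 and 194, 234, 270 and 257 CPM in EpCAM- replicates 1 to 4. The fractions cover the same range. The log2 fold change was -0.09 (SE 0.12, 95% interval -0.36 to 0.19), with an adjusted p of 0.596 in edgeR's quasi-likelihood test. Within pairs of the same replicate number, *Slc3a2* was 0.47 higher on the log2 scale in EpCAM+ replicate 1 and below the EpCAM- library in the other 3 pairs.

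LAT1 is the light chain that carries leucine and other large neutral amino acids on this heavy chain. Its gene *Slc7a5* (ENSMUSG00000040010, chr8:121881150-121907694, minus strand) had 31.3, 35.4, 41.2 and 43.2 CPM in EpCAM+ and 48.4, 52.5, 87.8 and 93.5 CPM in EpCAM- replicates 1 to 4. Every EpCAM- library was above every EpCAM+ library, and EpCAM- replicates 3 and 4 stood well above replicates 1 and 2. The means were 37.8 ± 5.43 and 70.5 ± 23.4 CPM (SD, n = 4 each), and the log2 fold change was -0.90 (SE 0.21, 95% interval -1.37 to -0.43), with an adjusted p of 0.00733 in edgeR's quasi-likelihood test. Between paired libraries the log2 difference of *Slc7a5* was -0.63, -0.57, -1.09 and -1.11. The call held when any 1 of the 8 libraries was left out, with log2 fold changes from -1.05 to -0.74 and adjusted p from 0.00252 to 0.0255. With EpCAM- replicates 3 and 4 both left out, the log2 fold change was -0.43 and its adjusted p 0.0594 in the same test. That fit was chosen after the values were seen and drops the libraries with the highest *Slc7a5*, so a smaller difference was built in. The EpCAM- libraries it keeps, replicates 1 and 2, still lay above every EpCAM+ library.

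y+LAT2, the light chain that exchanges cationic for neutral amino acids, showed no such difference. *Slc7a6* (ENSMUSG00000031904, chr8:106168857-106198706, plus strand) was at 59.4, 67.1, 63.5 and 69.97 CPM in EpCAM+ and at 61.9, 66.1, 54.5 and 45.0 CPM in EpCAM- libraries. The fractions overlap, and the lowest values were those of EpCAM- replicates 3 and 4, the libraries with the highest *Slc7a5*. Its log2 fold change was 0.19 (SE 0.11, 95% interval -0.06 to 0.45), with an adjusted p of 0.197 in edgeR's quasi-likelihood test. xCT, the third light chain, imports cystine in exchange for glutamate and feeds the synthesis of glutathione. *Slc7a11* (ENSMUSG00000027737, chr3:49892526-50443614, minus strand) had 5, 4, 19 and 8 counts in EpCAM+ and 5, 6, 5 and 4 counts in EpCAM- libraries, of which 19 in EpCAM+ replicate 3 (1.06 CPM) stood apart and the others were 4 to 8. The floor of detection taken here is 3 counts, or 0.168 to 0.222 CPM. It did not pass the filter on low counts, and tested without that filter its log2 fold change was 0.60 (SE 0.57), with an adjusted p of 0.469 in edgeR's quasi-likelihood test. A difference was not detectable at this depth, and 5 annotated genes that overlap *Slc7a11* had 0 counts in every library.

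**Figure D1:**
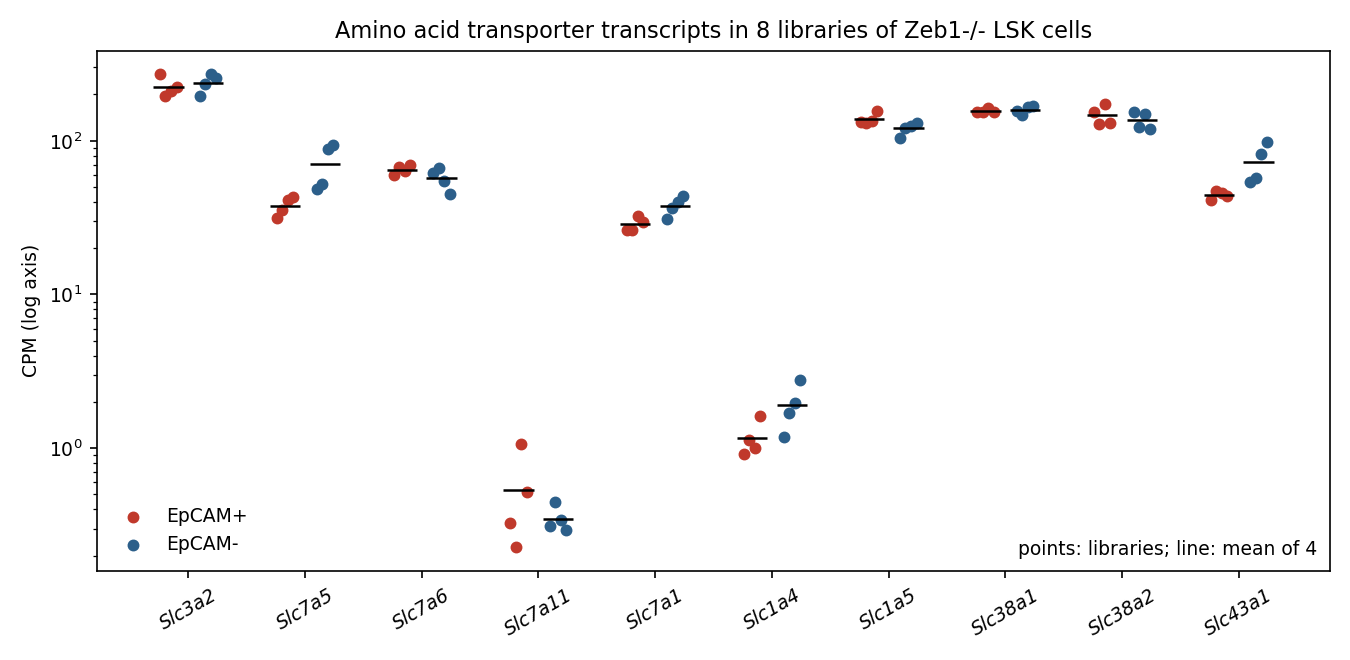
Level of each transporter in CPM (vertical log axis) in the 4 EpCAM+ libraries (red) and the 4 EpCAM- libraries (blue), with the points in replicate order from left to right and a line at the mean of 4. *Slc7a5* and *Slc43a1* are the genes past the threshold whose fractions do not overlap, and *Slc7a11* has the lowest levels in both fractions.

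Ratios of counts within a library do not depend on how libraries are scaled, and an exact permutation test (two-sided) was run on 6 of them. The ratio of *Slc7a5* to *Slc3a2* counts, light chain to heavy chain, was 0.116, 0.182, 0.196 and 0.192 in EpCAM+ and 0.249, 0.224, 0.325 and 0.364 in EpCAM- libraries. The fractions did not overlap, and the mean log2 ratio differed by -0.76 (exact permutation p = 0.0286, the smallest that 4 libraries against 4 allow, and 0.0858 after adjustment over the 6 ratios). For *Slc7a6* to *Slc3a2* the mean log2 ratio differed by 0.29 (exact permutation p = 0.229, adjusted 0.344), and its fractions overlapped. For the scarce *Slc7a11* against *Slc3a2* the difference was 0.47 (exact permutation p = 0.486, adjusted 0.486). None of the 6 ratios passed after adjustment, and for the 2 ratios at the smallest p the design left no adjusted p under 0.0858. Against the library of the same replicate number, *Slc7a5* to *Slc3a2* was lower in EpCAM+ cells in 4 of 4 pairs, as were *Slc1a4* to *Slc1a5* and *Slc38a1* to *Slc38a2* (exact sign-flip permutation p = 0.125 for each, the smallest that 4 pairs allow).

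**Figure D2:**
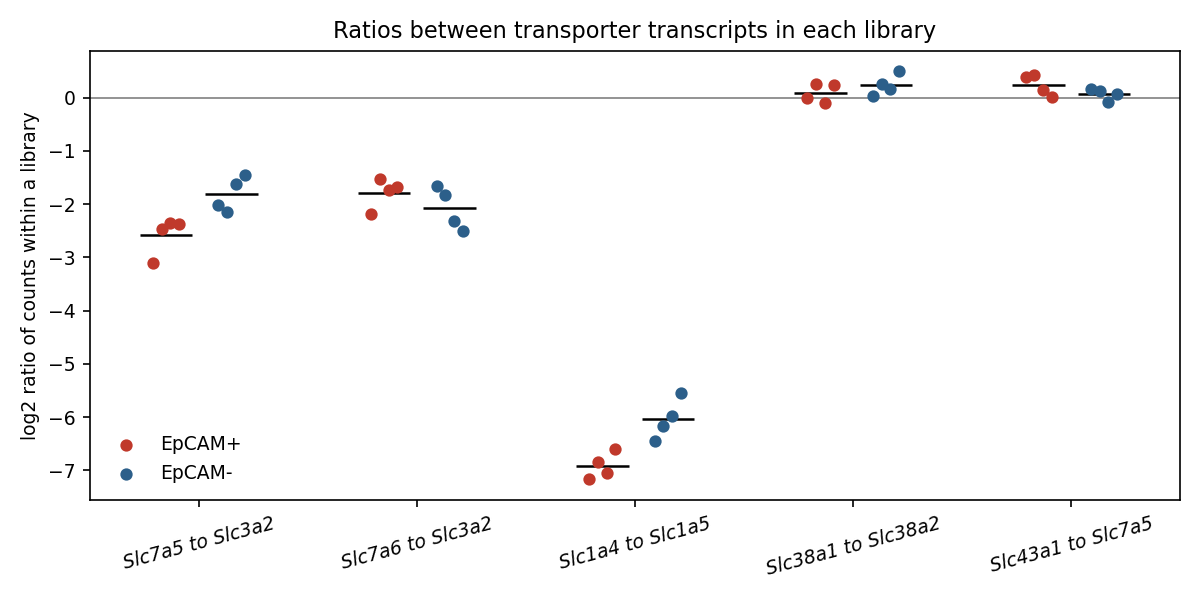
Log2 ratio of the counts of 2 transporters within each library (vertical axis) for EpCAM+ (red) and EpCAM- (blue) libraries, with a line at the mean of 4. The fractions are apart for *Slc7a5* to *Slc3a2* (difference -0.76) and for *Slc1a4* to *Slc1a5* (difference -0.88) and overlap for the other ratios drawn, and the ratio with the scarce *Slc7a11* is not drawn.

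LAT3 moves leucine and other large neutral amino acids by facilitated diffusion and is known in red cell precursors. *Slc43a1* (ENSMUSG00000027075, chr2:84838850-84863594, plus strand) had 41.0, 47.2, 45.7 and 43.6 CPM in EpCAM+ and 54.1, 57.0, 82.5 and 97.7 CPM in EpCAM- libraries. The fractions did not overlap, and EpCAM- replicates 3 and 4 were again the highest. The means of 44.4 ± 2.70 and 72.8 ± 20.9 CPM (SD, n = 4 each) gave a log2 fold change of -0.71 (SE 0.17, 95% interval -1.10 to -0.33), with an adjusted p of 0.00827 in edgeR's quasi-likelihood test. Pair by pair the difference was -0.40, -0.27, -0.85 and -1.16 on the log2 scale. All 8 fits with 1 library left out kept the call, with log2 fold changes from -0.84 to -0.55. Without EpCAM- replicates 3 and 4 the log2 fold change was -0.33 with an adjusted p of 0.0352. The ratio of *Slc43a1* to *Slc7a5* counts was 1.31, 1.33, 1.11 and 1.01 in EpCAM+ and 1.12, 1.09, 0.940 and 1.05 in EpCAM- libraries, overlapping ranges whose mean log2 values differed by 0.18 (exact permutation p = 0.229, adjusted 0.344).

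CAT1 is the main carrier of arginine, lysine and ornithine in most cells outside the liver. *Slc7a1* (ENSMUSG00000041313, chr5:148327410-148399904, minus strand) had 26.4, 26.1, 32.4 and 29.4 CPM in EpCAM+ and 31.1, 36.8, 39.7 and 43.7 CPM in EpCAM- libraries. The fractions overlapped by 1 library on each side, EpCAM+ replicate 3 and EpCAM- replicate 1. The means were 28.6 ± 2.94 and 37.8 ± 5.28 CPM (SD, n = 4 each), and the log2 fold change was -0.40 (SE 0.12, 95% interval -0.67 to -0.14), with an adjusted p of 0.0198 in edgeR's quasi-likelihood test. *Slc7a1* was lower in EpCAM+ cells in all 4 pairs, with log2 differences of -0.24, -0.50, -0.30 and -0.57. The call was lost in 3 of the 8 fits with 1 library left out, those without EpCAM+ replicate 2 (adjusted p 0.0530), EpCAM- replicate 3 (0.0523) or EpCAM- replicate 4 (0.0510), with log2 fold changes from -0.49 to -0.33 over the 8. Without both EpCAM- replicates 3 and 4 it was -0.26 with an adjusted p of 0.175.

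**Figure D3:**
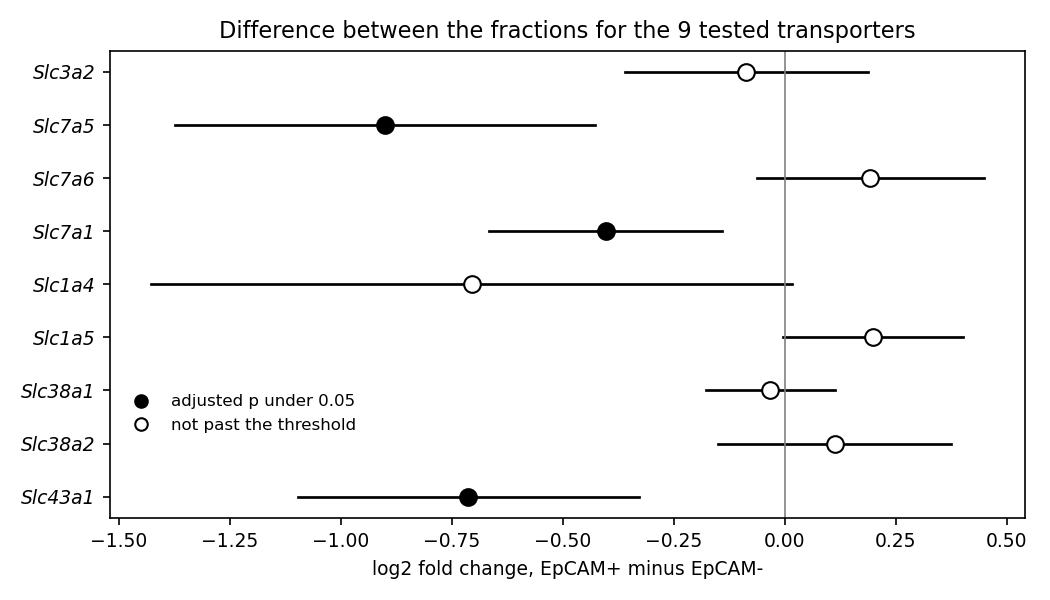
Log2 fold change, EpCAM+ minus EpCAM- (horizontal axis), of the 9 tested transporters with its 95% interval, filled where the adjusted p of edgeR's quasi-likelihood test was under 0.05. *Slc7a5* (-0.90), *Slc43a1* (-0.71) and *Slc7a1* (-0.40) are the filled points, and the interval of *Slc1a4* is the widest.

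ASCT1 and ASCT2 are sodium-dependent exchangers of small neutral amino acids, and ASCT2 is a major entry route for glutamine in dividing cells. *Slc1a5* (ENSMUSG00000001918, chr7:16781340-16798274, plus strand) had 132, 130, 134 and 157 CPM in EpCAM+ and 104, 122, 125 and 131 CPM in EpCAM- libraries. The ranges overlap, with EpCAM- replicate 4 just above EpCAM+ replicate 2. The log2 fold change was 0.20 (SE 0.09, 95% interval -0.003 to 0.40), with an adjusted p of 0.102 in edgeR's quasi-likelihood test. *Slc1a5* was higher in EpCAM+ cells in all 4 pairs, and with the replicate number as a block the same log2 fold change of 0.20 had an adjusted p of 0.0283. *Slc1a4* (ENSMUSG00000020142, chr11:20302180-20332713, minus strand) was scarce, with 14, 20, 18 and 25 counts in EpCAM+ and 19, 23, 29 and 38 counts in EpCAM- libraries. Its mean was 1.17 ± 0.314 against 1.92 ± 0.672 CPM (SD, n = 4 each), with overlapping ranges, a log2 fold change of -0.71 (SE 0.33, 95% interval -1.43 to 0.02) and an adjusted p of 0.104 in edgeR's quasi-likelihood test. Between paired libraries the log2 difference of *Slc1a4* was -0.37, -0.59, -0.98 and -0.79, below 0 in all 4 pairs, and with the replicate number as a block its adjusted p was 0.0599. Leaving out EpCAM- replicate 1 gave -0.89 with an adjusted p of 0.0485, and without EpCAM- replicates 3 and 4 it was -0.31 with an adjusted p of 0.570. The ratio of *Slc1a4* to *Slc1a5* counts was 0.00696 to 0.0103 in EpCAM+ and 0.0114 to 0.0214 in EpCAM- libraries, without overlap, and the mean log2 ratio differed by -0.88 (exact permutation p = 0.0286, adjusted 0.0858).

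The sodium-coupled carriers SNAT1 and SNAT2 drive net uptake of glutamine and alanine, and *Slc38a2* is a known target of ATF4. *Slc38a1* (ENSMUSG00000023169, chr15:96571418-96642913, minus strand) had 153, 154, 162 and 154 CPM in EpCAM+ and 156, 148, 165 and 169 CPM in EpCAM- libraries. It had the smallest log2 fold change of the 9 tested members, -0.03 (SE 0.07, 95% interval -0.18 to 0.11), with an adjusted p of 0.707 in edgeR's quasi-likelihood test and a sign that turned under other scalings. *Slc38a2* (ENSMUSG00000022462, chr15:96687392-96699730, minus strand) had 154, 129, 174 and 130 CPM in EpCAM+ and 153, 123, 148 and 119 CPM in EpCAM- libraries, so that replicates 1 and 3 were the higher ones in both fractions. Its log2 fold change was 0.11 (SE 0.12, 95% interval -0.15 to 0.38), with an adjusted p of 0.466 in the same test. The ratio of *Slc38a1* to *Slc38a2* counts was 0.930 to 1.19 in EpCAM+ and 1.02 to 1.41 in EpCAM- libraries (difference of the mean log2 ratio -0.14, exact permutation p = 0.314, adjusted 0.377).

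Levels of different transporters can be compared only per length. Divided by the gene length of the count table, *Slc3a2* led with 63.7 CPM per kilobase in EpCAM+ and 67.6 in EpCAM- cells, and *Slc1a5* followed with 33.1 and 28.8. The order then ran *Slc38a2* (16.6), *Slc7a6* (14.2), *Slc7a5* (10.2), *Slc38a1* (9.03), *Slc43a1* (7.77) and *Slc7a1* (2.48) in EpCAM+ cells, with *Slc1a4* at 0.298 and *Slc7a11* at 0.0383 CPM per kilobase. In EpCAM- cells *Slc7a5* came next, at 19.0 CPM per kilobase, and *Slc43a1* was at 12.7, above *Slc7a6* and *Slc38a1*. Neighbours overlapped between libraries for *Slc38a2* and *Slc7a6* and for *Slc7a5* and *Slc38a1* in EpCAM+ cells, and for every neighbouring pair from *Slc1a5* through *Slc7a5*, *Slc38a2* and *Slc43a1* to *Slc7a6* in EpCAM- cells. The authors' FPKM values imply shorter lengths than that column, by 1.01 to 4.71 times for the members, and so order the middle of the list differently, with *Slc7a6* at 39.7 and *Slc38a1* at 38.2 FPKM ahead of *Slc38a2* at 28.0 FPKM in EpCAM+ cells. On both scales *Slc3a2* and *Slc1a5* were the top genes and *Slc7a1*, *Slc1a4* and *Slc7a11* the bottom ones in both fractions.

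The labels were checked against marker genes. *Epcam*, the sort marker, had 187 ± 32.7 CPM in EpCAM+ and 3.86 ± 3.61 CPM in EpCAM- libraries (SD, n = 4 each). *Zeb1* transcripts were counted in every library, at 19.5 ± 3.75 CPM in EpCAM+ and 11.9 ± 2.14 CPM in EpCAM- libraries. They were higher in EpCAM+ cells (log2 fold change 0.72, adjusted p 0.00798 in edgeR's quasi-likelihood test). Since counts per gene do not show which exons they cover, the deletion is not shown by these counts. By genomic PCR, the paper reports that deletion was complete in LSK cells. The 7 LSK markers summed to 2087 to 2364 CPM in EpCAM+ and 1070 to 1624 CPM in EpCAM- libraries, with 6 of 7 higher in EpCAM+ cells. *Ly6a*, which encodes SCA-1, was at 71.7, 61.3, 16.4 and 15.7 CPM in EpCAM- replicates 1 to 4. Genes of the lineage antigens summed to at most 5.49 CPM in EpCAM+ and 6.18 CPM in EpCAM- libraries, and *Cd3e* was at or near 0.

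Summed markers of neutrophil granules, red cells, mast cells and basophils, plasma cells, and T and natural killer cells did not overlap between the fractions, while those of monocytes, dendritic cells, B cells and megakaryocytes did. Calls among these markers are to be read against 20.8% lower and 21.8% higher over all tested genes. Neutrophil granule markers summed to 1054 to 1812 CPM in EpCAM+ and 11842 to 18516 CPM in EpCAM- libraries (4 of 7 tested lower, among them *Mpo*). *Mpo* alone had 566 to 1175 CPM in EpCAM+ and 8739 to 12205 CPM in EpCAM- libraries. *Elane*, *Prtn3* and *Ctsg* were the other lower ones, and *S100a8*, *S100a9* and *Ltf* did not pass the threshold. Erythroid markers summed to 35.7 to 80.9 against 278 to 670 CPM (4 of 7 tested lower and *Hbb-bt* higher). Mast cell and basophil markers summed to 267 to 292 against 402 to 678 CPM (3 of 6 tested lower). Monocyte markers summed to 33.2 to 313 against 145 to 778 CPM (3 of 5 tested lower). Plasma cell markers summed to 385 to 3961 against 169 to 256 CPM (2 of 4 tested higher, with *Jchain* at 3525 CPM in EpCAM+ replicate 1). Dendritic cell markers summed to 455 to 1142 against 364 to 553 CPM (4 of 7 tested higher). *Flt3*, 1 of these 4, is also among the LSK markers and had 286 to 464 against 136 to 259 CPM. B cell markers summed to 73.1 to 128 against 47.5 to 81.3 CPM (2 of 4 tested higher) and megakaryocyte markers to 128 to 367 against 83.5 to 286 CPM (1 of 5 tested higher). T and natural killer cell markers summed to 52.6 to 64.4 against 16.8 to 27.7 CPM. Of those 7, *Lck* was the 1 tested and was higher. *Lck* alone had 50.3 to 62.7 CPM in EpCAM+ and 16.3 to 27.5 CPM in EpCAM- libraries, so that sum is nearly all *Lck*. *Klf1*, a master factor of red cell precursors, had 191, 178, 381 and 442 CPM in EpCAM- replicates 1 to 4 and 12.2 to 26.5 CPM in EpCAM+ libraries. EpCAM- replicates 3 and 4 thus held the most *Klf1* and the least *Ly6a*, and they are also the libraries with the most *Slc7a5*, *Slc43a1* and *Slc7a1*. The part of these cells in the transporter differences was not tested, and in bulk RNA fewer cells of a type cannot be told apart from less RNA per cell. Without those replicates 1 transporter, *Slc43a1*, was called lower, in place of 3. That fit drops the libraries seen to be highest for these genes, so a smaller difference was built in. It also called 3353 genes in all in place of 5779, so the lost calls show nothing about these cells.

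**Figure D4:**
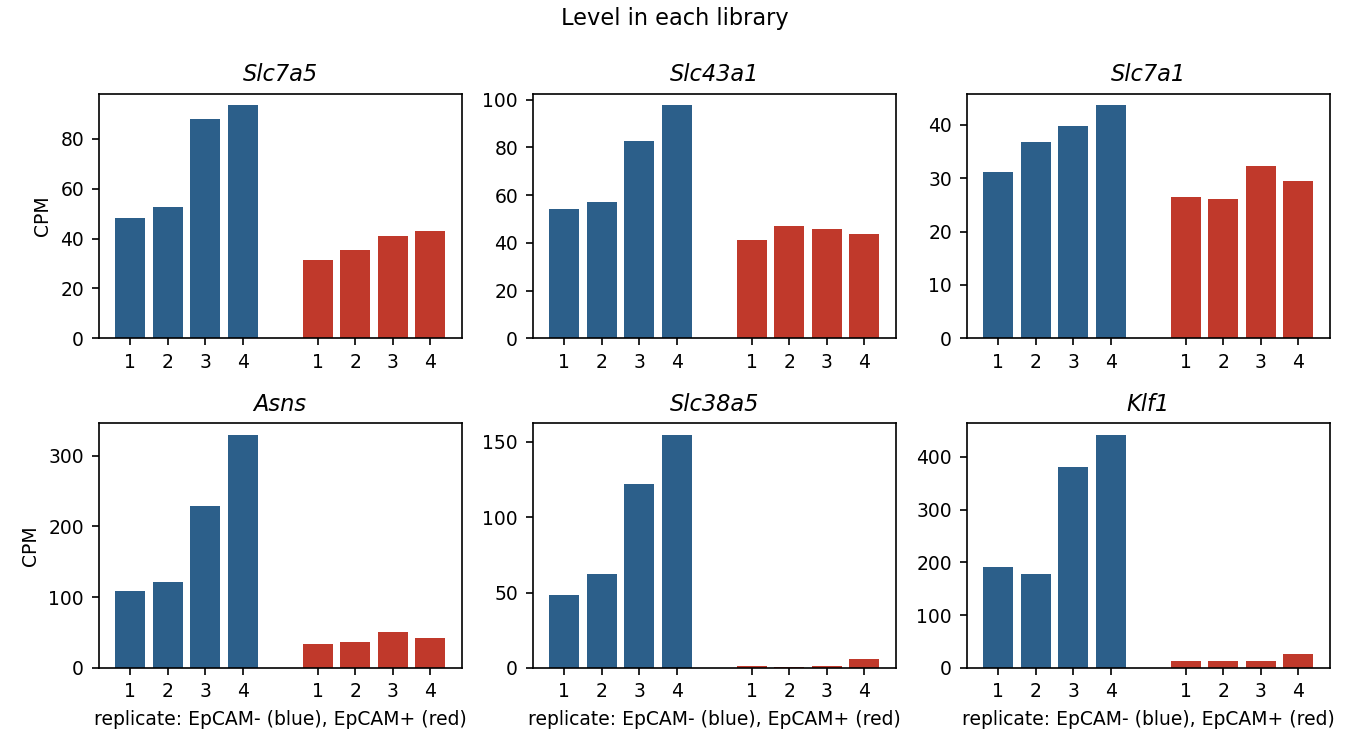
Level in CPM (vertical axes from 0) in EpCAM- replicates 1 to 4 (blue) and EpCAM+ replicates 1 to 4 (red) of the 3 transporters lower in EpCAM+ cells, of the asparagine synthetase gene *Asns*, of the transporter *Slc38a5* and of the erythroid factor *Klf1*. In all 6 panels EpCAM- replicates 3 and 4 are the highest bars.

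The other amino acid transporters of the cell surface were mostly silent, and 8 of the 35 listed had enough reads to be tested. Of these 8, 2 were higher and 2 lower in EpCAM+ cells, beside 21.8% higher and 20.8% lower over all tested genes. *Slc38a5*, which encodes the glutamine and glycine carrier SNAT5, had 20, 10, 24 and 88 counts in EpCAM+ libraries, or 1.31, 0.567, 1.34 and 5.71 CPM, against 48.5, 62.2, 122 and 155 CPM in EpCAM- libraries. The fractions were far apart and the EpCAM- libraries ranked as they did for *Slc7a5*. Its log2 fold change of -5.47 (SE 0.61, adjusted p 0.000225 in edgeR's quasi-likelihood test) exceeded that of any member. The aromatic amino acid carrier *Slc16a10* was also lower (-1.09), and the neutral amino acid carrier *Slc6a15* (1.67) and the taurine carrier *Slc6a6* (0.25) were higher. Inside the cell, 1 of 7 tested lysosomal transporters was higher, *Slc36a4* (0.58), and none was lower, and without a filter on low counts *Slc36a4* was not called. Of 9 tested amino acid carriers of the mitochondrial inner membrane, 5 were lower and 1 was higher. The serine carrier *Sfxn1* (-0.74) and the glycine carrier *Slc25a38*, which feeds heme synthesis (-0.93), were among the lower ones, and *Sfxn3* (0.71) was the higher one.

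Among 6 surface partners of the CD98 heavy chain, the lactate carrier *Slc16a1* (log2 fold change -1.29) and its chaperone basigin, *Bsg* (-0.52), were lower in EpCAM+ cells. *Epcam*, the gene sorted on, was the one partner that was higher. The other 3 partners and *Slc3a2* did not pass the threshold. Over all tested genes 20.8% were lower and 21.8% higher, so such calls were common.

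Regulators of transporter genes were called in both directions, as were genes at large, 20.8% lower and 21.8% higher in EpCAM+ cells. The counts that follow are to be read against these shares. Of 4 tested transcription factors, *Nfe2l2*, which encodes NRF2 (-0.57), *Myc* (-0.40) and *Atf4* (-0.32) were lower in EpCAM+ cells, and *Mycn* (1.41) was higher. Of 10 genes of the eIF2alpha kinases and the amino acid response, 3 were lower, with *Eif2s1* (-0.54) and *Atf4* among them, and 2 were higher. ATF4 activity is set by translation as well as by transcript level, and protein was not measured. Of 14 tested ATF4 target genes outside transport, 3 were lower and 4 higher. *Asns*, which makes asparagine, had 34.3, 36.0, 50.6 and 42.7 CPM in EpCAM+ and 109, 122, 229 and 330 CPM in EpCAM- libraries, with no overlap and with EpCAM- replicates 3 and 4 on top. Its log2 fold change was -2.27 (SE 0.33, adjusted p 0.000659 in edgeR's quasi-likelihood test), whereas the ATF4 targets *Nupr1* (1.95) and *Trib3* (1.67) were higher. Upstream of mTORC1, 5 of 37 tested genes of amino acid sensing were higher, among them the arginine sensor *Castor1* (1.18), and 6 were lower, among them *Seh1l* (-0.44) and *Sec13* (-0.44).

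Genes of pathways linked to the transported amino acids were counted, beside 20.8% lower and 21.8% higher over all tested genes. Of 7 tested genes of arginine use and polyamine synthesis, 5 were lower and 0 higher. Spermidine synthase *Srm* was at -1.10, ornithine decarboxylase *Odc1* at -1.05 and *Amd1* at -0.85. The listed genes that use arginine directly did not pass the filter on low counts, so the tested ones are polyamine genes. Of 9 genes of glutamine, glutamate, aspartate and alanine metabolism, 5 were lower and 1 was higher, glutamine synthetase *Glul* (0.80). Of 10 tested genes of glutathione synthesis and turnover, 5 were lower, among them *Gsr* (-0.95) and *Gclc* (-0.66), and 2 were higher, among them *Ggt1* (1.67). Of 12 tested genes of branched-chain amino acid breakdown, 4 were lower, with *Bcat2* at -0.63, and 1 was higher. The list of 15 proliferation genes had 11 lower and 0 higher, with *Ccna2* at -0.57. List medians were -0.31 for arginine and polyamines, -0.29 for glutamine, -0.39 for glutathione, -0.22 for branched chains and -0.34 for proliferation, beside 0.02 over all tested genes and -0.09 over the transporters. Without EpCAM- replicates 3 and 4, 3, 3, 3, 4 and 6 genes of these lists were called lower, in the same order. Lower calls over all genes fell as well, to 1700 of 14491 tested in that fit from 2818 of 13560 in the main fit.

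**Figure D5:**
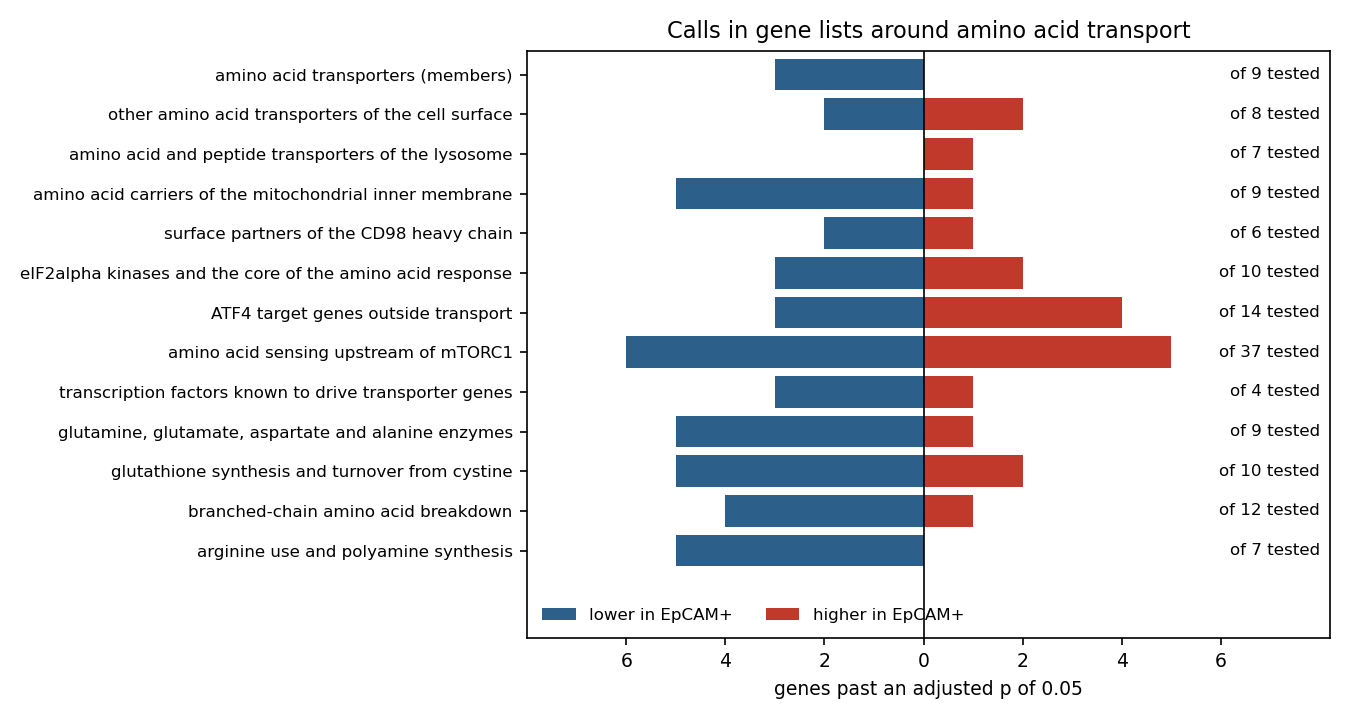
Number of genes past an adjusted p of 0.05 (horizontal axis, lower in EpCAM+ to the left in blue, higher to the right in red) in the 10 transporters and in 12 gene lists around amino acid transport, with the number tested at the right. The transporters show 3 lower and 0 higher of 9 tested, and the mitochondrial carriers and the arginine and polyamine genes show 5 lower each. Over all tested genes 20.8% were lower and 21.8% higher.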

How the data were processed

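RNA was measured in 8 libraries, 4 per fraction, from the same kind of mutant mice (4 mice per genotype per the labels). The authors amplified it with SMART-Seq v4, aligned 150-bp paired ends to GRCm38.p6 with STAR 2.6.1d and deposited raw read counts per gene from featureCounts 1.5.0-p3. The deposited FPKM values, normalized by the authors to length and depth, were used for levels alone. Their DESeq2 1.20.0 fold changes and p-values were not used. The annotation release, strand setting and treatment of multiply aligned reads are not given in the sources used here. Libraries held 15225714 to 17073546 (EpCAM+) and 14114491 to 15929923 (EpCAM-) counts on 54532 genes. Reads carry no molecular identifiers, so floors cover counting error only.

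Genes were kept by filterByExpr (9 of 10 members, 13560 genes), scaled by TMM and tested with edgeR 4.0.16 (quasi-likelihood, two-sided, R 4.3.3), adjusted by Benjamini-Hochberg. The procedure was tested on simulated data. Alternatives were DESeq2 1.42.0, other scalings and filters, the replicate block and libraries left out. Leaving out both EpCAM- replicates 3 and 4 was chosen after seeing the data. The transporters, lists, markers and tests were chosen with earlier results of these data known. Named genes are all members, at most 3 called genes of a list by adjusted p, *Atf4*, *Myc*, *Epcam* and *Zeb1*, and the markers with most counts. *Slc6a6*, *Trib3*, *Klf1*, *Ly6a*, *Jchain*, *Xbp1*, *Lck*, *Flt3*, *Hbb-bt*, *Cd3e*, *Elane*, *Prtn3*, *Ctsg*, *S100a8*, *S100a9* and *Ltf* were named after their values were seen.

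The replicate numbers were taken to pair the samples, but the main fit did not use them. Same-numbered libraries deviated together from their fraction means (correlation over 13560 genes 0.205 to 0.356 in 4 pairs, -0.216 to 0.0396 in 12 pairs of different numbers). The sources used here do not say what the numbers share. No 2 libraries of a fraction were duplicates (chi-square per degree of freedom 9.80 to 91.7 over 12 pairs). The labels do not say which library came from which mouse, so p-values measure only the spread between these samples, which may be technical.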

Additional observations from a re-analysis of the deposited data

Results flagged for a closer look

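Of 32 sets of 4 libraries, the levels of the 10 transporters and the 6 ratios in each fraction, 3 held a library whose gap to its nearest neighbour exceeded 0.829 of the whole range (Dixon's limit for 4 samples), and chance marks about 1 set in 20. *Slc1a5* was at 157 CPM in EpCAM+ replicate 4, a gap of 0.855 of the range. *Slc38a1* was at 162 CPM in EpCAM+ replicate 3, a gap of 0.943 of a narrow range. The log2 ratio of *Slc7a5* to *Slc3a2* was -3.11 in EpCAM+ replicate 1, a gap of 0.859 of the range, where *Slc3a2* was at its highest and *Slc7a5* at its lowest among the EpCAM+ libraries.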

How the results depend on the processing

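*Slc7a5*, *Slc43a1* and *Slc7a1* were called lower under every test, scaling and filter tried. Upper-quartile scaling, library totals and the replicate block each called 1 transporter higher, *Slc1a5* (log2 fold change 0.29, 0.28 and 0.20), and the block changed no other member's call. The sign of *Slc38a1* turned under upper-quartile scaling (0.053) and library totals (0.051). These 2 scalings moved the median of all genes from 0.02 to 0.11 and the split of higher to lower calls from 2961 and 2818 to 3642 and 2083 and to 3476 and 2066. With single libraries left out, the median of the members ranged from -0.19 to -0.028, *Slc7a1* from -0.49 to -0.33 and *Slc1a4* from -0.90 to -0.48. Leaving out EpCAM- replicates 3 and 4 together called 3353 genes in place of 5779 and 1 transporter lower in place of 3, with *Slc7a5* at -0.43, *Slc7a1* at -0.26, *Slc3a2* turned to 0.058 and *Slc38a1* to 0.025. This leaves 2 EpCAM- libraries, and the cause of each other change was not tested. Among the other gene lists, DESeq2 and no filter each called 4 surface transporters higher and 4 lower (2 and 2 before), and no filter called 0 lysosomal transporters higher (1 before). Upper-quartile scaling and library totals each called 3 mitochondrial carriers (5 before), 3 glutamine genes (5), 2 branched-chain genes (4) and 1 transporter factor (3) lower, and 4 amino acid response genes (2) and 10 mTORC1 genes (5) higher. In all, 525 of the list counts and medians under an alternative stayed close to their first value, 39 medians moved further, and 46 counts were smaller and 14 larger by over 1.5 times. Depth limits *Slc7a11* and *Slc1a4*.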
